A study of Sus scrofa domesticus with 6 samples.

Results

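The 10 genes described here are ADM, VEGFA, LDHA, HK2, PFKFB3, PGK1, BNIP3, EGLN3, NDRG1 and HIF1A, taken by their symbol from a table of 30352 named pig genes. Each symbol matched 1 row, and all 10 were among the 18197 genes that passed the filter on low counts. All belong to, or are known targets of, the response of cells to low oxygen. RNA sequencing measured them in small intestine of 6 wild type Gottingen minipigs (Sus scrofa domesticus) aged 6 months, with 2 animals in each of 3 groups and 1 library per animal. IR_Pra animals received 15 Gy of 60Co gamma rays to the abdomen and 40 mg/day of oral pravastatin, a statin that blocks cholesterol synthesis, split over 2 doses a day for 2 weeks. IR animals received the same 15 Gy without the drug, and control animals are labelled only as control. Tissue was taken on day 14, and the labels do not say which stretch of the small intestine it came from.

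Low oxygen is answered in animal cells by HIF, a transcription factor made of an unstable alpha subunit, such as HIF1A, and a stable partner, ARNT. When oxygen is plentiful, prolyl hydroxylases of the EGLN family mark the alpha subunit for destruction through VHL, so much of the control of HIF1A acts on the protein and not on its mRNA. Stabilised HIF raises genes that make glycolysis faster, bring in blood vessels and remove mitochondria, and the small intestine is known for a steep oxygen gradient along the villus in which this pathway is active.

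The 6 libraries held 48600424 to 73975174 read counts. The IR animals were less alike than the others: the median gene differed by 1.58-fold between the 2 IR animals, against 1.25-fold between the IR_Pra animals and 1.21-fold between the controls. Markers of absorptive enterocytes, of which 11 of 12 were matched and none was at 0 in any library, summed to 17330 and 14840 CPM in IR_Pra, 29770 and 731 CPM in IR (animals 1 and 2) and 21130 and 22570 CPM in control. FABP1 and APOA4 weigh on that sum in IR, with 6185 ± 8591 and 4471 ± 6305 CPM in IR and 120 ± 40.7 and 166 ± 71.6 CPM in control (SD, n = 2 each). Of the 11 markers, 7 lay below both controls in both IR animals, where 30% of all genes did, and 3 had a positive log2 fold change. The median log2 fold change of the list was -1.54. CPM is the read count scaled to the size of its library, with TMM scaling between libraries. Library IR 1 also had a trend with transcript length (Spearman rho of -0.35 across genes between length and the log2 ratio to control, against -0.15 to 0.12 in the other libraries). In IR against control 0 of 11 enterocyte markers passed the threshold used below. Past it and lower were 4 of 6 B cell and 1 of 6 T cell markers, beside 2.68% of all genes. Past it and higher were 2 of 6 neutrophil, 1 of 6 glia and 1 of 4 adipocyte markers, beside 3.39% of all genes. Of 8 fibroblast markers 0 passed, but 7 lay above both controls in both IR animals and 1 below. Their sum was 6994 and 4795 CPM in IR_Pra, 8130 and 24870 CPM in IR and 1978 and 3256 CPM in control. Of 4 red blood cell markers 0 passed, and 3 lay above both controls and 0 below. Over all genes 29.8% lay above. In bulk tissue, fewer cells of a type and less RNA per cell cannot be told apart.

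Levels between genes are compared as FPKM, fragments scaled by transcript length and by library size. LDHA and NDRG1 were the most abundant of the 10 in IR_Pra and in control, and HK2 was the least abundant in all 3 groups. LDHA averaged 237.8 ± 42.7 FPKM in IR_Pra, 156 ± 39.7 in IR and 238.2 ± 33.1 in control (SD, n = 2 each). NDRG1 averaged 194 ± 6.78 FPKM in IR_Pra, 68.8 ± 45.8 in IR and 279 ± 50.9 in control. HK2 averaged 2.77 ± 0.907, 1.78 ± 1.64 and 2.12 ± 1.23 FPKM in the same order of groups. PGK1 came next below that pair in IR_Pra and control, with 84.3 ± 2.75 FPKM in IR_Pra, 91.3 ± 5.40 in IR and 68.1 ± 2.89 in control. In IR, PGK1, NDRG1 and BNIP3 formed a run in which each overlapped its neighbour. BNIP3 and VEGFA overlapped in all 3 groups, and so did HIF1A and EGLN3 in all 3 groups. By group mean, ADM held the eighth place in IR_Pra (11.05 ± 2.86 FPKM), the sixth in IR (18.4 ± 1.65) and the ninth in control (4.77 ± 1.13), and was the member whose place moved furthest upward in IR. Its values overlapped those of PFKFB3 in IR_Pra and in control, so its order with PFKFB3 there is not settled. EGLN3 and HIF1A, which ranked above ADM in IR_Pra and control, averaged 9.93 and 6.65 FPKM in IR and 18.97 and 15.12 in control.

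**Figure D1:**
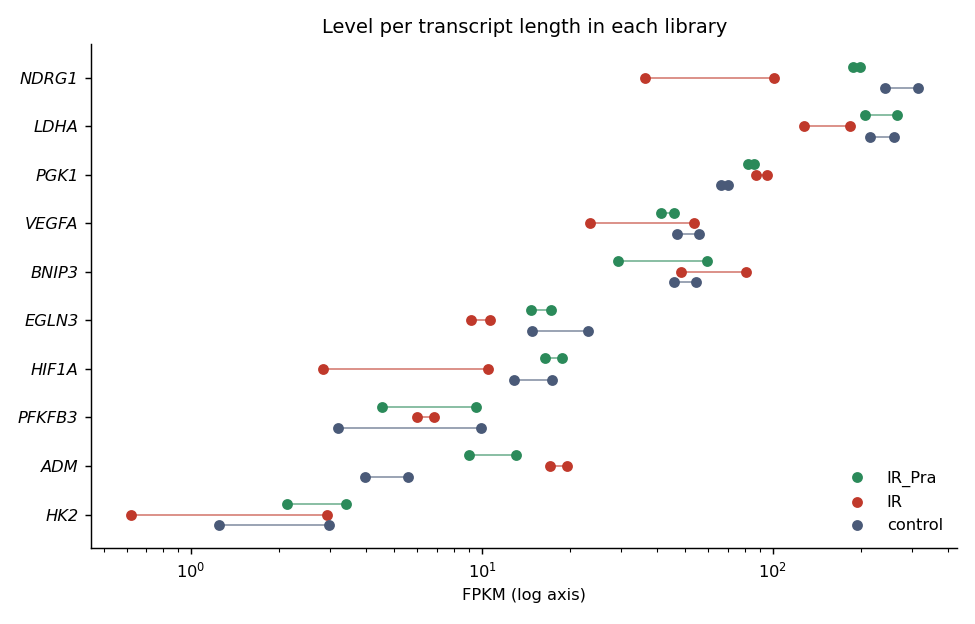
FPKM of the 10 genes in each library on a log axis, ordered by the control mean. Points are libraries, lines join the 2 animals of a group, and colours mark IR_Pra, IR and control. ADM is the gene whose IR points (17.2 and 19.5) lie to the right of both other groups by the widest margin, and the lines of HIF1A, HK2, NDRG1 and VEGFA are longest in IR.

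The comparison of IR with control asks what abdominal irradiation had changed by day 14. Of the 10 genes, 1 passed the threshold (edgeR quasi-likelihood F test, adjusted p under 0.05 over all 18197 genes), and it was higher in IR. Of all genes tested, 6.06% passed, 3.39% higher and 2.68% lower in IR (616 and 487 genes; 182 and 293 with library size as the only scaling). The median log2 fold change of the 10 was -0.14, with 4 positive, and that of all genes was 0.03. Values of the 2 IR animals lay above both controls for 2 of the 10 and below both for 4, while 59.8% of all genes had groups that did not overlap. An unadjusted p under 0.05 was found for 3 of the 10 (ADM, EGLN3 and NDRG1) and for 30.2% of all genes.

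The gene that passed was ADM (Entrez 397195, Sscrofa11.1 chromosome 2, 49229223 to 49231521), which encodes adrenomedullin, a secreted peptide that widens vessels and tightens the endothelial barrier. ADM had 19.1 and 13.6 CPM in IR_Pra, 35.1 and 26.1 CPM in IR and 8.73 and 6.11 CPM in control. The 3 groups were fully separated, with IR highest, control lowest and IR_Pra in between. Taken pair by pair, values did not overlap for 59.8% of all genes between IR and control and 53.9% between IR_Pra and IR. Between IR_Pra and control it was 40.8%. The share separated in all 3 pairs at once was not counted. ADM rose in IR by a log2 fold change of 2.04 ± 0.34 (SE; 4.12-fold, 95% interval 1.21 to 2.87 on the log2 scale, adjusted p = 0.0391, edgeR), higher in 2 of 2 animals. IR_Pra differed from IR by -0.90 ± 0.33 on the log2 scale (interval -1.71 to -0.10, edgeR adjusted p = 0.170), a difference that did not pass. It was 1.14 ± 0.33 above control (interval 0.33 to 1.95, edgeR adjusted p = 0.9998), which did not pass either. The IR_Pra comparison with IR and that of IR with control share the IR libraries. With the length trend removed, ADM gave 1.74 in IR against control (edgeR adjusted p = 0.0469). In IR_Pra against IR it gave -0.61 (edgeR adjusted p = 0.281). The call in IR against control was lost without control 1, control 2, IR_Pra 1 or IR_Pra 2, as was every other call in those fits. It was kept without IR 1 or IR 2, each a fit with a lone IR library. The log2 fold change lay between 1.81 and 2.37 over all these fits. Macrophage markers moved in the same direction: all 10 were above both controls in both IR animals, 9 passed, and their sum was 1299 and 1933 CPM in IR_Pra, 3687 and 4024 CPM in IR and 778 and 788 CPM in control. Endothelial markers summed to 341 and 328 CPM in IR_Pra, 515 and 606 CPM in IR and 355 and 238 CPM in control, and 1 of 9 passed (EGFL7). Smooth muscle markers summed to 19910 and 13800 CPM in IR_Pra, 32760 and 68560 CPM in IR and 5867 and 12050 CPM in control, and 1 of 8 passed (ACTA2). Of the endothelial markers 7 lay above both controls in both IR animals, and of the smooth muscle markers all 8, with 0 below. Over all genes 29.8% lay above both controls and 3.39% passed higher. The part of these cells in the ADM difference was not tested.

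Adrenomedullin acts through the receptor CALCRL joined to RAMP2 or RAMP3, while CALCRL with RAMP1 binds the neuropeptide CGRP. Of 15 other ligands and receptors of the adrenomedullin and VEGF pathways, 12 had a positive log2 fold change in IR against control (median 0.43), and 1 passed. Over all genes 9335 of 18197 were positive (median 0.03), and 3.39% passed higher. It was RAMP1, with 13.9 and 17.9 CPM in IR_Pra, 40.2 and 49.4 CPM in IR and 16.2 and 9.73 CPM in control. RAMP1 rose in IR by 1.79 ± 0.34 (log2, adjusted p = 0.0452, edgeR), and IR_Pra differed from IR by -1.497 ± 0.33 (adjusted p = 0.0921), which did not pass. RAMP2 averaged 66.9 ± 27.3 CPM in IR and 34.7 ± 6.71 in control, and CALCRL 7.46 ± 0.913 CPM in IR and 5.87 ± 0.121 in control. Their log2 fold changes of 0.95 and 0.35 did not pass (adjusted p of 0.149 and 0.512, edgeR). The RAMP1 call was lost with library size as the only scaling (edgeR adjusted p = 0.0610) and with the length trend removed (0.0745). It was also lost without control 1, control 2, IR_Pra 1 or IR_Pra 2, as was every other call in those fits.

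VEGFA (Entrez 397157, chromosome 7, 38746393 to 38762282) encodes the main growth factor for new vessels and is a direct HIF target. It had 88.7 and 98.6 CPM in IR_Pra, 158 and 63.8 CPM in IR and 124 and 104 CPM in control. The IR animals fell on opposite sides of both other groups, with IR 1 the highest and IR 2 the lowest of all 6 libraries. The log2 fold change of IR against control was -0.04 ± 0.43 (interval -1.102 to 1.01, adjusted p = 0.958, edgeR), an interval that leaves a rise or a fall of 1 log2 unit undetectable with 2 animals per group. Without IR 1 it was -0.84 and without IR 2 it was 0.46, each in a fit with a lone IR library. IR_Pra differed from IR by -0.24 ± 0.43 and from control by -0.28 ± 0.43 (log2), and neither passed. Of the other VEGF ligands, the placental growth factor PGF averaged 6.58 ± 0.971 CPM in IR and 2.08 ± 0.198 in control (1.66 on the log2 scale, adjusted p = 0.0502). The main receptor KDR averaged 21.9 ± 1.49 CPM in IR and 23.0 ± 9.82 in control (-0.07, adjusted p = 0.926).

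VEGFA is 1 of the 3 members for which the table lists more than 1 transcript, here 2. Dividing a gene's count by its FPKM gives the mean length of the transcripts to which the authors assigned the reads. For VEGFA this implied length was 2.30 and 2.24 kb in IR_Pra, 2.56 and 2.79 kb in IR and 2.23 and 2.24 kb in control. Both IR animals were above every other library, although they differed in opposite directions in VEGFA level. In FPKM, which divides by length and has no TMM scaling, VEGFA was 41.2 and 45.6 in IR_Pra, 53.5 and 23.4 in IR and 55.5 and 47.0 in control, with IR 1 between the controls. Genes with 1 transcript have a fixed length, and the scale was set on them, so they show only the numerical error of this measure. Over 4850 of them the 6 libraries spanned a median of 0.0604%, and 95% of genes spanned at most 0.591%. The error of sharing reads between transcripts of a gene is not in these values. Of 8170 genes with more than 1 transcript, 21.8% had implied lengths in IR above both controls, and 1.75% had them above by more than 1.1-fold, as VEGFA did; that ratio was chosen after the values were seen. LDHA, with 5 listed transcripts, ranged from 1.76 to 1.78 kb over the 6 libraries. PFKFB3, with 6, had 4.62 and 4.57 kb in IR_Pra, 4.54 and 4.52 kb in IR and 4.61 and 4.79 kb in control. Which VEGFA transcript the reads came from is not in the table, and the part of the length trend of IR 1 in its value was not tested.

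**Figure D2:**
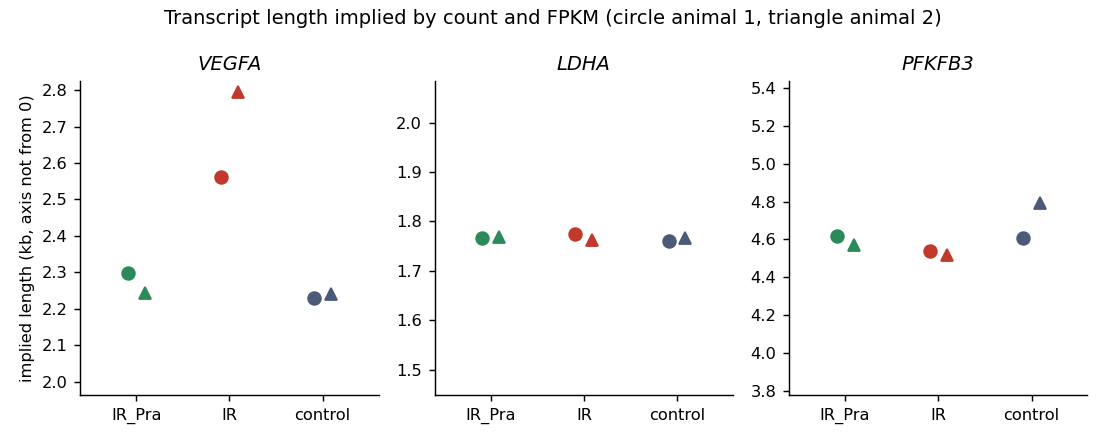
Mean transcript length in kb implied by count and FPKM for the 3 members with more than 1 listed transcript, by group (circle animal 1, triangle animal 2; the vertical axes do not start at 0 and each spans the same relative range). VEGFA stands at 2.56 and 2.79 kb in IR and between 2.23 and 2.30 kb elsewhere, and LDHA is flat.

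HIF1A (Entrez 396696, chromosome 1, 190625436 to 190673926), the oxygen-regulated alpha subunit, had 52.9 and 47.5 CPM in IR_Pra, 9.75 and 30.4 CPM in IR and 52.1 and 38.0 CPM in control. Both IR values lay below all 4 others, and IR 1 lay furthest below. The log2 fold change was -1.16 ± 0.53 in IR against control (interval -2.46 to 0.13, adjusted p = 0.200, edgeR) and 1.32 ± 0.53 in IR_Pra against IR (interval 0.02 to 2.62, edgeR adjusted p = 0.199), and neither passed. Both passed when IR 2 was left out (-2.21, adjusted p = 0.0180, and 2.37, adjusted p = 0.0267), a fit in which the lone IR library is assumed to vary like the other groups. IR_Pra against control gave 0.16 ± 0.52 (interval -1.12 to 1.43). Over the alternatives that leave out no library of the comparison, removal of the length trend included, the log2 fold change of IR against control lay between -1.27 and -1.14.

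EGLN3 (Entrez 100152368, chromosome 7, 65805513 to 65833536) encodes a prolyl hydroxylase that marks HIF for destruction and is itself raised by HIF. It had 46.6 and 55.8 CPM in IR_Pra, 35.5 and 35.0 CPM in IR and 50.2 and 76.7 CPM in control. The IR animals were within 1.02-fold of each other, the tightest pair of any member in IR, and lay below all other libraries. The log2 fold change was -0.85 ± 0.28 in IR against control (interval -1.53 to -0.17, edgeR adjusted p = 0.111) and 0.54 ± 0.28 in IR_Pra against IR (adjusted p = 0.286), and neither passed.

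Among 15 other genes of HIF and oxygen sensing, 11 had a negative log2 fold change in IR against control (median -0.44), 10 lay below both controls in both IR animals, and 1 passed, where 30% of all genes lay below both and 2.68% passed lower. CITED2, which competes with HIF for the coactivators CREBBP and EP300, had 68.0 and 63.0 CPM in IR_Pra, 49.9 and 41.1 CPM in IR and 97.9 and 116 CPM in control. CITED2 fell in IR by 1.23 on the log2 scale (SE 0.23, adjusted p = 0.0451, edgeR). The groups were fully separated, with IR_Pra between IR and control, an order whose share over all genes was not counted. The coactivators themselves averaged 58.9 ± 25.2 CPM in IR and 154 ± 6.65 in control for CREBBP and 55.4 ± 31.3 CPM in IR and 142 ± 0.386 in control for EP300 (adjusted p of 0.0638 and 0.0936). On the side of HIF removal, EGLN2 averaged 114 ± 14.2 CPM in IR and 67.3 ± 0.986 in control (0.76 on the log2 scale, adjusted p = 0.0944), and VHL 9.36 ± 2.07 CPM in IR and 16.4 ± 2.83 in control (-0.81, adjusted p = 0.132). In IR_Pra against IR none of the 15 passed, and the smallest p were those of EGLN2 (-0.81 ± 0.23, adjusted p = 0.117) and the elongin ELOB (-0.996 ± 0.29, adjusted p = 0.120). The CITED2 call was lost with the legacy form of the edgeR test (adjusted p = 0.0509) and with no filter (0.0525). It was also lost without control 1, control 2, IR_Pra 1 or IR_Pra 2, as was every other call in those fits. The part of the length trend of IR 1 in the median of the 15 genes was not tested.

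**Figure D3:**
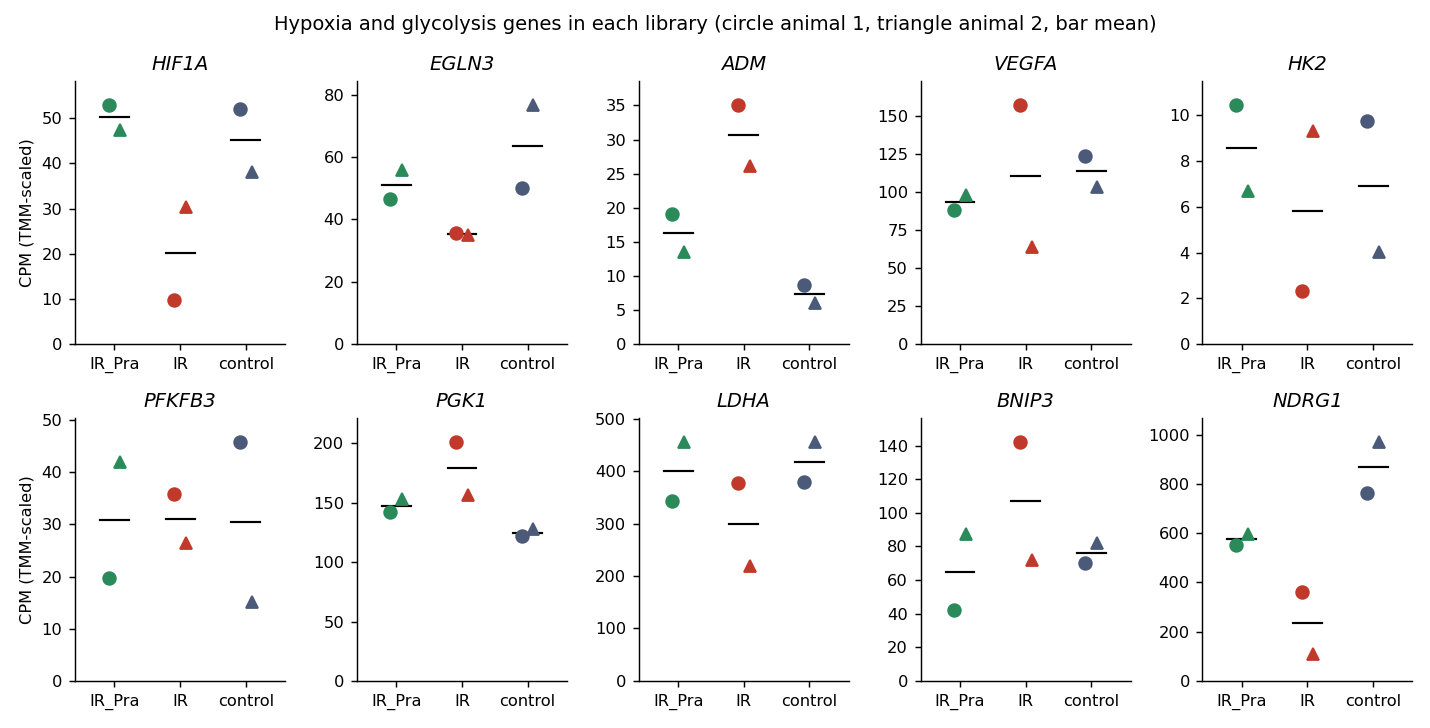
TMM-scaled CPM of the 10 genes in each library, ordered by role, with IR_Pra left, IR in the middle and control right (circle animal 1, triangle animal 2, bar mean; axes start at 0). ADM separates all 3 groups, HIF1A, EGLN3 and NDRG1 are lowest in both IR animals, and the IR animals of VEGFA lie on either side of the other groups.

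The 4 members that act in glycolysis split. HK2 (Entrez 494561, chromosome 3, 68155656 to 68231187), the inducible hexokinase that traps glucose in the cell, had 10.4 and 6.70 CPM in IR_Pra, 2.32 and 9.32 CPM in IR and 9.77 and 4.02 CPM in control. It differed 4.02-fold between the IR animals and 2.43-fold between the controls, and the groups overlapped. PFKFB3 (Entrez 100516289, chromosome 10, 64776315 to 64859118) makes the fructose bisphosphate that switches on phosphofructokinase. It had 19.6 and 42.0 CPM in IR_Pra, 35.8 and 26.4 CPM in IR and 45.8 and 15.1 CPM in control, with both IR values inside the control range. For HK2 and PFKFB3 the log2 fold change of IR against control was -0.24 ± 0.74 and 0.03 ± 0.60, with intervals of -2.05 to 1.57 and -1.44 to 1.496, so the spread between animals leaves large differences in either direction undetectable at n = 2.

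PGK1 (Entrez 407608, chromosome X, 62187472 to 62210321) encodes phosphoglycerate kinase, which makes ATP in the later steps of glycolysis. It had 142 and 153 CPM in IR_Pra, 202 and 157 CPM in IR and 122 and 128 CPM in control. Both IR animals were above both IR_Pra animals, and these above both controls, an order whose share over all genes was not counted. The log2 fold change of IR against control was 0.52 ± 0.24 (interval -0.07 to 1.11, adjusted p = 0.205, edgeR), and that of IR_Pra against IR was -0.28 ± 0.24 (adjusted p = 0.500). With the length trend removed they were 0.26 and -0.04. LDHA (Entrez 407245, chromosome 2, 40814163 to 40827284) encodes the lactate dehydrogenase subunit that favours lactate. It had 344 and 456 CPM in IR_Pra, 377 and 220 CPM in IR and 380 and 456 CPM in control. Both IR values lay under the controls, IR 1 only just, and the log2 fold change of -0.49 ± 0.36 did not pass (interval -1.38 to 0.40, adjusted p = 0.404). With the length trend removed it was -0.77, which did not pass either (edgeR adjusted p = 0.149).

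The 21 other glycolytic enzymes had a median log2 fold change of 0.63 in IR against control, beside 0.03 for all genes. Of them 17 were positive, 13 lay above both controls in both IR animals and 4 below both, where 29.8% of all genes lay above and 30% below. One passed, ENO3, the muscle form of enolase, with 23.9 and 17.3 CPM in IR_Pra, 78.1 and 64.5 CPM in IR and 7.10 and 15.7 CPM in control. ENO3 rose in IR by 2.64 ± 0.44 (log2, adjusted p = 0.0391, edgeR), and IR_Pra differed from IR by -1.79 ± 0.43 (adjusted p = 0.0953). The ENO3 call was lost without control 1, control 2, IR_Pra 1 or IR_Pra 2, as was every other call in those fits. Skeletal muscle markers, of which 8 of 9 were matched, summed to 519 and 293 CPM in IR_Pra, 801 and 1013 CPM in IR and 102 and 304 CPM in control. Of the 8, MYH2 and MYH1 passed, where 3.39% of all genes passed higher. Their part in the ENO3 difference was not tested. Nor was the part of the length trend of IR 1 in the median of the 21 enzymes.

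Enzyme forms of the same step did not all lie on the same side. HK1, the housekeeping hexokinase, averaged 187 ± 68.7 CPM in IR and 73.0 ± 2.15 in control (adjusted p = 0.0597), while HKDC1 averaged 44.8 ± 48.0 CPM in IR and 107 ± 13.2 in control (adjusted p = 0.343). ALDOA averaged 1541 ± 479 CPM in IR and 759 ± 19.0 in control (adjusted p = 0.147). LDHB, the subunit that favours pyruvate, averaged 307 ± 63.6 CPM in IR and 148 ± 1.68 in control (1.06 on the log2 scale, adjusted p = 0.0750). The symbol LDHB has 2 rows in the table, of which the one with more counts is given, and reads may be split between them. None of these differences passed. In IR_Pra against IR the 21 enzymes had a median of -0.67 with 4 positive, and none passed. After ENO3, the smallest p was that of ALDOC, with 13.7 ± 2.95 CPM in IR_Pra and 27.0 ± 2.37 in IR (adjusted p = 0.109).

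Of 16 genes for glucose, lactate and pyruvate carriers and for control of glycolysis and pyruvate use, 7 had a positive log2 fold change in IR against control (median -0.09) and none passed. SLC2A1, the basal glucose carrier and a HIF target, averaged 44.4 ± 8.94 CPM in IR and 20.0 ± 2.21 in control (1.15 ± 0.31, adjusted p = 0.0778). PFKFB1 averaged 0.0186 ± 0.0263 CPM in IR and 0.24 ± 0.0205 in control, too few counts for a fold. PDK1, a kinase that inhibits pyruvate dehydrogenase and a HIF target, averaged 7.09 ± 5.51 CPM in IR and 15.4 ± 1.51 in control (adjusted p = 0.235). In IR_Pra against IR, PDK3, a kinase of the same kind, averaged 78.3 ± 9.28 CPM in IR_Pra and 45.3 ± 5.52 in IR (adjusted p = 0.132), and none of the 16 passed. Of 6 gluconeogenesis genes tested, from 7 listed, none passed in either comparison, and FBP2 had the smallest p in both, with 63.9 ± 6.68 CPM in IR_Pra, 18.4 ± 18.1 in IR and 82.7 ± 25.1 in control (adjusted p = 0.125 for IR against control). G6PC3 was next, at 0.76 in IR against control and -0.50 in IR_Pra against IR (adjusted p of 0.172 and 0.370).

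NDRG1 (Entrez 100156071, chromosome 4, 8014445 to 8069335), a stress-induced protein linked to epithelial differentiation, was the member with the lowest log2 fold change. It had 554 and 597 CPM in IR_Pra, 363 and 111 CPM in IR and 763 and 972 CPM in control. The 3 groups were fully separated in the reverse order of ADM, with IR lowest and control highest. The share of all genes with that order was not counted. The log2 fold change in IR against control was -1.87 ± 0.58 (interval -3.30 to -0.44, edgeR adjusted p = 0.0994), which did not pass. IR_Pra was 1.28 ± 0.57 above IR (interval -0.13 to 2.68, adjusted p = 0.235). NDRG1 passed in IR against control by DESeq2 (-1.86, adjusted p = 0.0148), which called 4131 of 18197 genes there. Its log2 fold change was -2.97 without IR 1 and -1.26 without IR 2, each in a fit with a lone IR library. In IR_Pra against IR it was 2.38 without IR 1 and 0.66 without IR 2. Of the enterocyte markers, 7 of 11 also lay below both controls in both IR animals, where 30% of all genes did. Among these 11 markers 3 had a positive log2 fold change, and 0 passed. The part of enterocytes in the NDRG1 difference was not tested. Of the 3 other genes of its family, NDRG4 averaged 128 ± 65.0 CPM in IR and 36.7 ± 17.6 in control (1.80 ± 0.53, adjusted p = 0.0887), and NDRG2 53.7 ± 12.9 CPM in IR and 31.4 ± 12.96 in control (adjusted p = 0.201). Neither passed.

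BNIP3 (Entrez 100624868, chromosome 14, 140362123 to 140371951), a receptor on mitochondria that sends them to autophagy, had 42.0 and 87.5 CPM in IR_Pra, 142 and 71.8 CPM in IR and 70.2 and 82.3 CPM in control. The groups overlapped, and IR 1 was the highest library. The log2 fold change was 0.49 ± 0.46 in IR against control (interval -0.65 to 1.63, adjusted p = 0.510) and -0.73 ± 0.46 in IR_Pra against IR (adjusted p = 0.378). With the length trend removed these were 0.16 and -0.43. Of 10 partners and mitophagy genes none passed in any comparison, and their log2 fold changes in IR against control ran from -0.55 to 1.07 with a median of 0.05. RHEB, a partner of BNIP3, averaged 33.5 ± 1.36 CPM in IR and 20.7 ± 0.0661 in control (adjusted p = 0.111). BNIP3L, the closest relative of BNIP3, averaged 41.8 ± 12.3 CPM in IR and 61.4 ± 13.7 in control (adjusted p = 0.262).

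**Figure D4:**
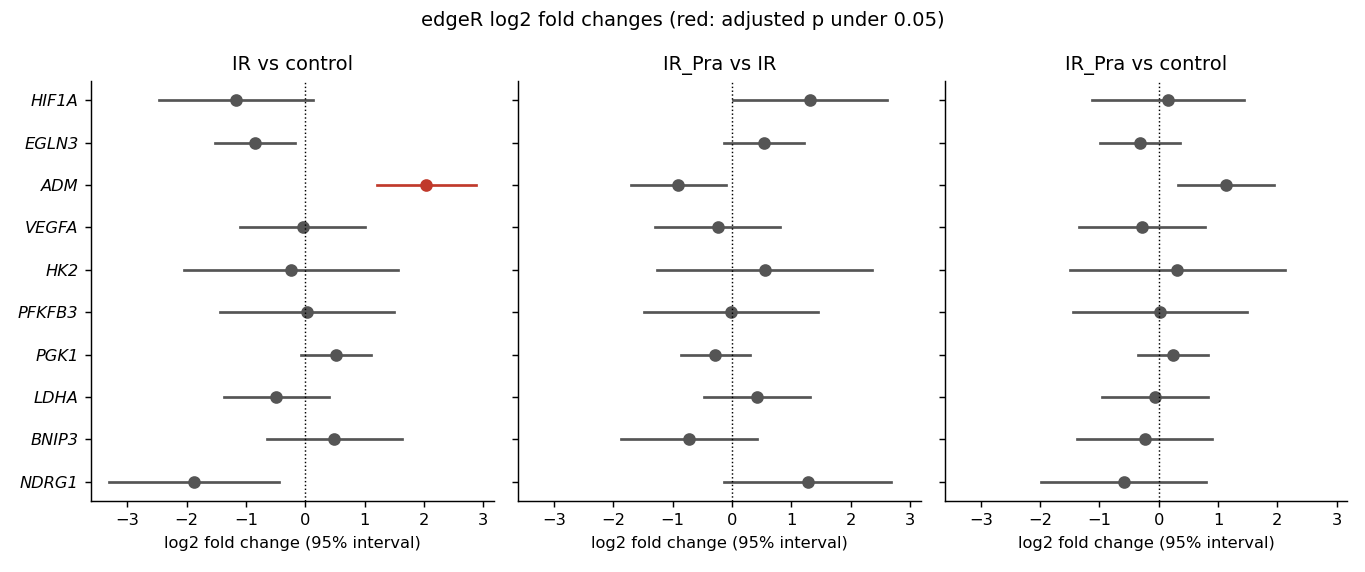
Log2 fold change of each of the 10 genes in the 3 comparisons with its 95% interval (edgeR, 2 animals per group). ADM in IR against control, at 2.04, is the one point past an adjusted p of 0.05, and the widest intervals are those of HK2.

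The remaining textbook HIF targets also lay on both sides of zero. Of 30 listed, 29 were tested and EPO was at 0 counts in every library. In IR against control 13 of the 29 were positive (median -0.13), 4 lay above both controls in both IR animals and 11 below both, where 29.8% of all genes lay above and 30% below. Of the 29, 1 passed, where 6.06% of all genes did. STC2, a secreted glycoprotein, had 1.91 and 3.02 CPM in IR_Pra, 1.38 and 1.23 CPM in IR and 6.42 and 7.68 CPM in control. STC2 fell in IR by 2.44 on the log2 scale (SE 0.40, adjusted p = 0.0391, edgeR), a direction opposite to that of ADM. The STC2 call was lost without control 1, control 2, IR_Pra 1 or IR_Pra 2, as was every other call in those fits. CA9, often used as a marker of hypoxic tissue, averaged 7.90 ± 3.31 CPM in IR and 8.65 ± 1.84 in control (-0.13, adjusted p = 0.848). The histone demethylase KDM3A averaged 48.2 ± 4.58 CPM in IR_Pra, 28.7 ± 0.993 in IR and 51.6 ± 1.65 in control (adjusted p of 0.0667 for IR against control and 0.115 for IR_Pra against IR). NDUFA4L2 averaged 3.68 ± 0.786 CPM in IR_Pra, 8.40 ± 0.395 in IR and 3.93 ± 0.955 in control (adjusted p of 0.105 and 0.123). ANGPTL4 averaged 164 ± 144 CPM in IR and 76.4 ± 24.2 in control, with the SD in IR nearly as high as the mean. SLC2A1, PDK1, EGLN1, PFKFB4 and BNIP3L stand on 2 of the lists.

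**Figure D5:**
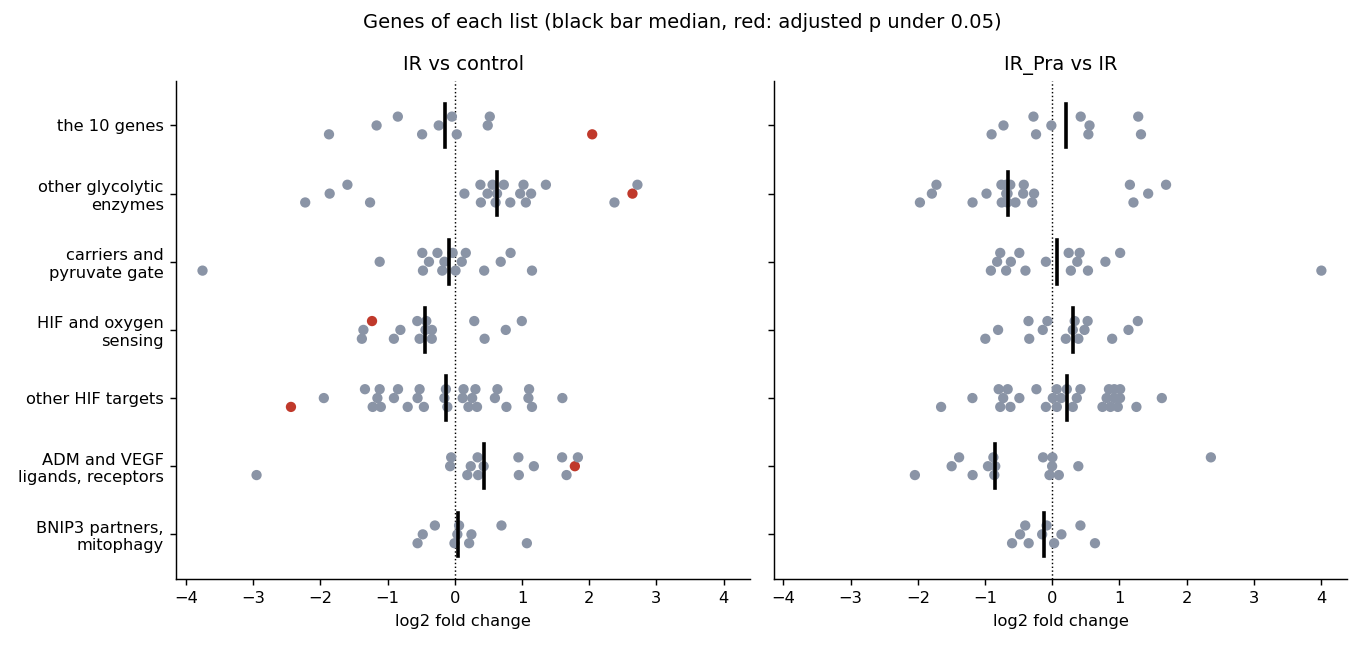
Log2 fold changes of the 10 genes and of 6 related lists in IR against control and in IR_Pra against IR; each point is a gene, black bars are medians and red points passed an adjusted p of 0.05. In IR against control the other glycolytic enzymes have a median of 0.63 and the HIF and oxygen sensing genes -0.44, and the red points are ADM, ENO3, CITED2, STC2 and RAMP1.

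The comparison of IR_Pra with IR asks what the drug changed in irradiated animals. None of the 10 genes passed (edgeR), and 0.0055% of all genes did. An unadjusted p under 0.05 was found for 2 of the 10 (ADM lower and HIF1A higher in IR_Pra), where 24.5% of all genes had one. With the length trend removed the unadjusted p (edgeR) was 0.0973 for ADM and 0.0358 for HIF1A. The median log2 fold change of the 10 was 0.20, with 5 positive, and that of all genes was -0.02. No member passed by DESeq2, which called 2872 genes in this comparison. Values did not overlap for 5 of the 10, with 3 higher (EGLN3, NDRG1 and HIF1A) and 2 lower (ADM and PGK1) in IR_Pra, where 53.9% of all genes did not overlap, 27.3% higher and 26.6% lower. Among the related lists, PGF averaged 2.52 ± 0.267 CPM in IR_Pra and 6.58 ± 0.971 in IR (adjusted p = 0.0986). RHEB, BNIP3L, NDRG4 and NDRG2 gave log2 fold changes of -0.40, 0.42, -1.34 and -0.78, with adjusted p of 0.324, 0.419, 0.188 and 0.236.

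In IR_Pra against control none of the 10 passed, and 0% of all genes did. ADM was the only 1 of the 10 with an unadjusted p under 0.05 in edgeR, where 3.42% of all genes had one, and no member passed by DESeq2, which called 72 genes. Groups did not overlap for 4 of the 10 (ADM and PGK1 higher, VEGFA and NDRG1 lower in IR_Pra) and for 40.8% of all genes (20.8% higher, 20% lower). The mean of IR_Pra lay between those of IR and control for 6 of the 10 (ADM, LDHA, PFKFB3, PGK1, EGLN3 and NDRG1), as for 53.3% of all genes. None of the related lists had a gene that passed in this comparison. Their smallest p belonged to STC2, with 2.47 ± 0.784 CPM in IR_Pra and 7.05 ± 0.891 in control (-1.52 ± 0.38, edgeR adjusted p = 0.9998). CITED2 averaged 65.5 ± 3.51 CPM in IR_Pra and 107 ± 12.7 in control (-0.71 ± 0.23, adjusted p = 0.9998). The lymphatic receptor FLT4 averaged 11.3 ± 0.0698 CPM in IR_Pra and 18.2 ± 0.589 in control (-0.69 ± 0.23, adjusted p = 0.9998). HMOX1 averaged 33.0 ± 8.98 CPM in IR_Pra and 59.1 ± 20.7 in control, with the same adjusted p. The other genes with the smallest p of their lists gave log2 fold changes of 0.69 for HK1, 0.32 for PDK3, 0.81 for SLC16A1, -0.90 for HIF3A, 0.43 for ACKR3, 0.29 for RHEB, -0.31 for PINK1, 0.26 for G6PC3, 0.60 for PC, 0.46 for NDRG4 and 0.09 for NDRG3, with the same adjusted p.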

How the data were processed

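The authors' deposited table holds, per the file headers, a read count and an FPKM value per gene and library. Per the submitters' processing notes the tools were bcl2fastq 2.20.0, Trimmomatic, HISAT2 2.1.0 and StringTie 2.1.3b, and the builds named are Sscrofa11.1 and GRCh38. The step that turned alignments into whole numbers is not named in these sources. All coordinates are those of RefSeq genes on Sscrofa11.1, matched by Entrez ID. Rows without a gene name held 0.00906% to 0.0385% of a library's counts and did not enter any fit.

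The main test used edgeR 4.0.16 (R 4.3.3): filterByExpr by group, TMM scaling, a single quasi-likelihood fit of group means to all 6 libraries (residual degrees of freedom 3), two-sided F tests, and Benjamini-Hochberg adjustment over all 18197 genes of a comparison, with a threshold of 0.05. Standard errors and 95% intervals were derived from the F statistic. The fit was also run on simulated data with known changes, drawn with the same dispersion for all genes and groups. As the spread here differs between genes and groups, that run checks the code and not the error rates of these data. Deposited FPKM values were used only to compare levels between genes and to derive implied lengths, and were not tested. The implied length is the count divided by FPKM and by total counts, put on 1 scale over libraries with genes that have 1 transcript and a mean of at least 200 counts. Where a symbol had 2 rows, the row with more counts was used. The length trend was a lowess curve with a span of 0.3 of log2 CPM (prior count 2) against log2 length.

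The 10 members, the gene and marker lists and the tests were chosen with earlier results of these data known. All 10 members were named. Of each related list, up to 4 genes with the smallest p among those that passed, or else the 2 with the smallest p, were named, and other list genes in the text were chosen after their values were seen. Some list genes that this rule names are not reported here. With 2 animals per group the p-values rest on a spread shared by all genes and groups. Alternatives were DESeq2 1.42.0, its size factors in edgeR, library size alone, no filter, the 4 libraries of a comparison, a replicate block, removal of the length trend and leaving out each library. The legacy form of edgeR's test was added after seeing the data. Promoter and protein sequences were not used here.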

Additional observations from a re-analysis of the deposited data

How the results depend on the processing

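The count of genes past the threshold in IR against control, 1103, was 4131 by DESeq2, 475 with library size alone, 0 with the 4 libraries alone and 0 with the replicate block, and 0 to 5342 when a library was left out. In IR_Pra against IR the count of 1 was 2872 by DESeq2, 2 with library size alone, 2 with no filter, 0 with the 4 libraries alone, 0 with the replicate block and 0 to 3728 with a library left out. In IR_Pra against control the count of 0 (623 genes at an unadjusted p under 0.05) was 72 by DESeq2. Of the 10 members, 1 passed in IR against control, 2 by DESeq2, 0 with the 4 libraries alone, 0 with the replicate block and 0 to 3 with a library left out. In IR_Pra against IR, 0 passed (2 at an unadjusted p under 0.05), and 0 to 1 with a library left out. Library size alone moved the median log2 fold change of all genes in IR_Pra against IR to 0.14, against -0.02 with TMM.

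Same-numbered animals did not deviate together (r across genes of -0.0909, -0.11 and 0.0812 for the pairs of groups). With 2 animals per group these values cannot settle whether same-numbered animals were paired. The replicate block uses 1 more degree of freedom. ADM kept its direction under every alternative and lost its call with the replicate block (2.05, adjusted p = 0.0777) and with the 4 libraries alone (2.11, adjusted p = 0.0995). ENO3, CITED2, STC2 and RAMP1 lost theirs in the same 2 fits, with adjusted p between 0.0803 and 0.120.

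Of 240 member values under alternatives other than leaving out a library, 230 kept direction and call, 2 lost and 1 gained the call, and 7 changed sign, each close to 0. LDHA in IR_Pra against control became 0.00099 with library size alone. PFKFB3 became -0.0736 (IR against control) and 0.16 (IR_Pra against IR) with library size alone, 0.0681 (IR_Pra against IR) with the replicate block, and -0.00028 and -0.00035 (IR_Pra against control) with DESeq2 size factors and DESeq2. VEGFA in IR against control became 0.0447 with the 4 libraries alone. The cause was not tested.

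Of 180 values with a library left out, 148 kept direction and call, 4 lost and 6 gained the call, and 22 changed sign. In IR against control the ranges of those that changed sign were -0.0902 to 0.90 for BNIP3, -1.57 to 0.53 for HK2, -0.48 to 1.09 for PFKFB3 and -0.84 to 0.46 for VEGFA. In IR_Pra against IR they were -0.12 to 1.88 for HK2, -0.73 to 0.35 for PFKFB3 and -0.75 to 0.56 for VEGFA. In IR_Pra against control they were -0.87 to 0.18 for BNIP3, -0.61 to 0.0354 for EGLN3, -0.0454 to 0.38 for HIF1A, -0.18 to 1.07 for HK2, -0.29 to 0.11 for LDHA and -0.63 to 1.001 for PFKFB3. Every member had at least 125 counts in every library, so depth limits these values less than the spread between 2 animals.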
